A study of Homo sapiens with 15 samples.

Results

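Cells of RPMI-8226, an established line from human multiple myeloma that keeps the secretory machinery of plasma cells, were treated with KB528, and 49 genes of the endoplasmic reticulum (ER) and the early secretory pathway were followed over time. The genes were taken by name, as 49 of the 26364 gene rows in the deposited table. They cover chaperones, folding enzymes, ER-associated degradation, the translocon, signal peptidase, vesicle transport and a pair of stress-signalling genes. All 49 passed the filter of a mean of 1 TPM over the libraries, and they were tested together with all other genes that passed, 12002 in all. KB528, labelled a KAT (lysine acetyltransferase) inhibitor of p300, was given at 100 nM for 1, 3, 6 or 24 h. The control cells received DMSO and were taken at 0 h. The genotype label is WT for the DMSO libraries and KB528 for the treated ones, and 3 libraries represent each of the 5 groups. Whether the 3 libraries of a group are separate cultures is not stated, and the p-values reflect only their spread, which may be technical. Because DMSO was taken at 1 time, time in culture and handling cannot be told apart from KB528. In bulk RNA, fewer cells of a kind and less RNA per cell cannot be told apart either.

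Proteins bound for secretion or for membranes enter the ER through the SEC61 channel, lose their signal peptide, and are folded by chaperones of the HSP70 and HSP90 families, lectin chaperones and disulfide isomerases. Chains that fail to fold are returned to the cytosol and degraded, a route known as ER-associated degradation. When unfolded chains build up, the sensors IRE1 (gene ERN1), PERK (EIF2AK3) and ATF6 start the unfolded protein response, whose factors XBP1 and ATF6 raise many of these genes. Plasma cells depend on this system because they secrete immunoglobulin in bulk. The plasma cell label of the line was checked against markers. In DMSO libraries SDC1, TNFRSF17, CD38, IRF4 and PRDM1 averaged 243, 123, 54.01, 91.6 and 26.7 TPM, and JCHAIN, which joins immunoglobulin chains, 4288 TPM, but SLAMF7, another plasma cell marker, only 1.66 TPM. Of T cells CD3D and CD2 were listed at 0 in all 15 libraries, and CD3E and CD3G averaged 0.255 and 0.0252 TPM. Of the markers of monocytes, red cells and fibroblasts, CD14 and HBA1 (8.72 TPM) averaged above 1 TPM. The epithelial markers were divided, with EPCAM at 113, KRT18 at 147, KRT8 at 3.80, CDH1 at 0.534 and KRT19 at 0.0374 TPM.

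The promoters of some of these genes hold the best known binding element of the response, the ER stress response element, and they are shown because the genes that carry it include the chaperones whose time courses are given first. A script searched both strands of RefSeq promoter windows (GRCh38.p14), from 250 bases before to 50 bases after each annotated start, for ERSE (CCAAT and CCACG with any 9 bases between them), ERSE-II (ATTGG and CCACG with any 1 base between them) and TGACGTGG (the core of the XBP1 element, UPRE). Windows were found for 42 of the 49 genes. ERSE was in 6 of these 42 genes (14.3%: CALR, CANX, CRELD2, HSP90B1, HSPA5 and PDIA6), against 25 of 27305 genes with a window (0.0916%). ERSE-II was in 3 (7.14%: HERPUD1, HYOU1 and SDF2L1), against 19 of all genes (0.0696%), and TGACGTGG was in 5 (11.9%: HYOU1, SSR3, SSR4, TXNDC11 and TXNDC5), against 253 (0.927%). The 49 genes were taken by name, and many are known genes of this response. Their shares beside those of all genes are therefore no independent result, and they were not tested. In HYOU1 a TGACGTGG match overlaps an ERSE-II match. The stretches around the ERSE and ERSE-II matches of 7 genes, without CANX and PDIA6, are printed below in lower case, read 5′ to 3′ on the strand of the gene, with the fixed letters of ERSE or ERSE-II in capitals; a match found on the other strand appears as its reverse complement.
HSPA5 (chr9:125241381-125241419, minus strand): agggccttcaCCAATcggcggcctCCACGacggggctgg
HSP90B1 (chr12:103930206-103930349, plus strand): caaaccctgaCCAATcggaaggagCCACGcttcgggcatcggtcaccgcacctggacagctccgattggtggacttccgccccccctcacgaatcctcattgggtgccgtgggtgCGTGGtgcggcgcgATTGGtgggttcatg
CALR (chr19:12938374-12938412, plus strand): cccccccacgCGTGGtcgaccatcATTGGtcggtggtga
CRELD2 (chr22:49918544-49918582, plus strand): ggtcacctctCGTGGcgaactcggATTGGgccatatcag
HYOU1 (chr11:119057264-119057400, minus strand): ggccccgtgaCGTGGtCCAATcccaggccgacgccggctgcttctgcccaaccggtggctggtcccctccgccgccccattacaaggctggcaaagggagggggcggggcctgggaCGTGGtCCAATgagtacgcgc
SDF2L1 (chr22:21642104-21642134, plus strand): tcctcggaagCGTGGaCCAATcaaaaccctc
HERPUD1 (chr16:56932015-56932045, plus strand): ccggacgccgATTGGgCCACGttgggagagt
HSP90B1 and HYOU1 each hold 2 matches and the other 5 printed genes hold 1. No window was found for PDIA3, DERL1, DERL3, TRAM1, SPCS1, SEC24D and KDELR2. The authors' build is hg19, so these coordinates are those of the RefSeq build and not of the deposited table. A match describes the letters of the window, and binding was not measured.

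Over the time course, with the main scaling, a small majority of these genes were called higher or not called through 6 h and were called lower at 24 h. Under median-ratio scaling 21 of the 49, and 4504 of all 12002 tested genes, were called lower at 6 h already. Against DMSO, limma called 16 of 49 higher and 1 lower at 1 h (adjusted p threshold 0.05, Benjamini-Hochberg over all tested genes), where 15% of all tested genes were called higher and 7.57% lower. The 3 h comparison gave 20 higher calls and 7 lower calls, beside 24.9% and 32% of all tested genes. The 6 h comparison gave 25 and 14, beside 44.4% and 24.5%. After 24 h only 3 genes were called higher and 40 lower, while 56.1% of all tested genes were called higher and 15.2% lower. With the main scaling the share called higher was above that of all tested genes at 1, 3 and 6 h. The share called lower was below that of all tested genes at 1 and 3 h and above it at 6 h. The direction at 24 h is, with the main scaling, the opposite of that of most tested genes. Median-ratio scaling called 4458 of 12002 tested genes higher and 3594 lower at 24 h. After a correction for transcript length these counts were 3784 and 3852 of 11319. Of the 49 genes 44 and 46 were called lower under these scalings. The early counts depend on the scaling, as given below. The 4 comparisons share the DMSO libraries.

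The median log2 fold change of the 49 genes, on the log2(TPM + 1) scale, took the values 0.086, 0.088, 0.13 and -0.41 at 1, 3, 6 and 24 h. Over all 12002 tested genes the medians were 0.043, -0.042, 0.12 and 0.23 at the same times. Relative to all tested genes the 49 therefore stood 0.043, 0.13 and 0.013 higher at 1, 3 and 6 h and 0.63 lower at 24 h (differences of medians, log2), and 46 of them were below the all-gene median at 24 h. Other scalings moved the log2 fold changes of all tested genes. The median over genes of that shift was -0.15 (6 h) and -0.19 (24 h) with median-ratio scaling. It was -0.21 (3 h) and 0.18 (6 h) with scaling to the spike-ins, and -0.16 (6 h) and -0.23 (24 h) after a correction for transcript length. Under these 3 scalings, in this order, the members' median at 24 h was -0.61, -0.42 and -0.59. All-gene medians at 24 h were then 0.045, 0.21 and 0.0039. At 6 h the members' median was -0.026, 0.32 and -0.0041, and the all-gene median -0.023, 0.29 and 0.0036. The calls moved with them: at 6 h median-ratio scaling called 12 higher and 21 lower, the length correction 16 and 18, and spike-in scaling 11 and 3. Over all tested genes the 6 h counts were 3922 higher and 4504 lower of 12002 with median-ratio scaling. They were 4115 and 3990 of 11319 after the length correction and 4118 and 995 of 12002 with spike-in scaling. Under each of these scalings the share of the 49 called higher at 6 h was below that of all tested genes. With spike-in scaling, 1 gene was called higher and 0 lower at 1 h. Its 3 h counts were 0 higher against 2 lower calls, and those of 24 h were 0 against 21. The spike-in counts of all 12002 tested genes were 348 higher and 122 lower at 1 h. At 3 h they were 411 and 2523, and at 24 h 2441 and 658.

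The higher calls at 6 h that median-ratio scaling ended were those of HSP90B1, PDIA4, MANF, CRELD2, SEL1L, SYVN1, DERL2, SSR1, SSR2, SPCS2, SPCS3, KDELR1 and KDELR2. With that scaling PDIA6, PRDX4, FKBP2, DERL1, SEC61B, SSR4 and SEC23B were also called lower at 6 h, and SYVN1, EDEM1, TRAM1 and CREB3L2 at 24 h. The 12 higher calls at 6 h that it kept, among them HSPA5, HYOU1, DNAJC3, CALR, CANX, P4HB and SEC61A1, also held in the other settings apart from spike-in scaling.

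**Figure D1:**
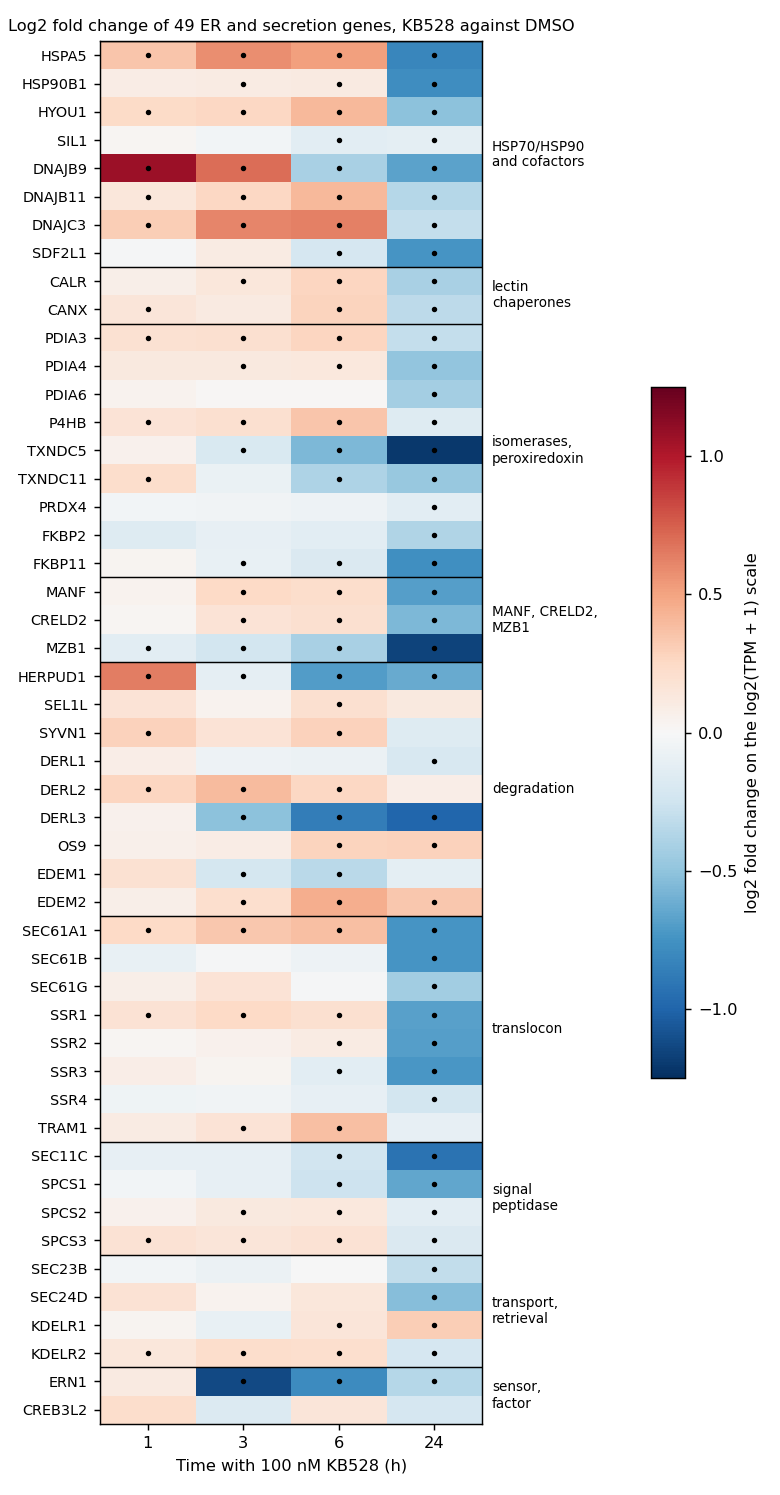
Log2 fold change of each of the 49 genes (rows, grouped by role) at 1, 3, 6 and 24 h of KB528 against DMSO (columns), from limma on log2(TPM + 1); a dot marks an adjusted p under 0.05. The 24 h column holds 40 genes called lower and 3 called higher, and the 6 h column 14 and 25. With median-ratio scaling the 6 h counts were 21 lower and 12 higher, beside 4504 and 3922 of all 12002 tested genes.

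Summed, the 49 genes took 1.86, 1.86 and 1.87 percent of the TPM of all genes in the DMSO libraries, 1.95, 1.96 and 1.95 percent at 1 h and 1.98, 1.99 and 1.98 percent at 3 h. At 6 h they took 1.87, 1.86 and 1.86 percent and at 24 h 1.26, 1.26 and 1.26 percent. The 24 h libraries lay below every other library, while the 6 h and DMSO libraries were close, at means of 1.87 and 1.86 percent. MZB1, the most abundant of the 49 in DMSO, made up 16.2% of their sum there. With MZB1 left out the mean shares were 1.56 percent in DMSO and 1.68, 1.72, 1.64 and 1.12 percent at 1, 3, 6 and 24 h. TPM is divided by transcript length and can be compared between genes. After MZB1 came CALR, P4HB, SSR2, HSP90B1, SEC11C and HSPA5, and the 49 DMSO means ran from 10.2 TPM (DERL2) to 2618 TPM, with a median of 160 TPM.

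**Figure D2:**
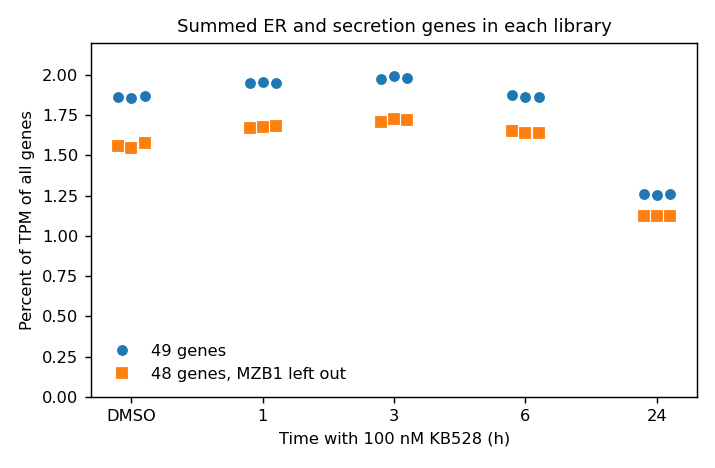
Summed TPM of the 49 genes as a percent of the TPM of all genes in each of 15 libraries (circles), and of 48 genes without MZB1 (squares), for DMSO and 1, 3, 6 and 24 h of KB528. The 3 libraries at 24 h lie at 1.26 percent, below all DMSO libraries, which lie at 1.86 to 1.87 percent.

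The HSP70 and HSP90 chaperones of the ER lumen and their cofactors numbered 8, of which 5 were called higher at 1 h, 6 at 3 h and 5 at 6 h. At 6 h 3 were called lower, and by 24 h the whole group of 8 was called lower. Among all tested genes the shares called higher were 15%, 24.9%, 44.4% and 56.1% at 1, 3, 6 and 24 h. Those called lower were 7.57%, 32%, 24.5% and 15.2%. These shares are to be read beside the counts of the other role groups below as well. HSPA5 encodes BiP, the main HSP70 of the ER, whose promoter stretch with ERSE is printed above. It had 718, 664 and 749 TPM in the DMSO libraries, 894, 902 and 911 TPM at 1 h and 1033, 1077 and 1073 TPM at 3 h. At 6 h it had 987, 1006 and 1045 TPM and at 24 h 407, 405 and 397 TPM. Every library at 1, 3 and 6 h was above the DMSO range and every library at 24 h was below it. The log2 fold change of HSPA5 was 0.35 (SE 0.041, limma's adjusted p = 2.14e-05) at 1 h, 0.58 (SE 0.041, adjusted p = 1.63e-08) at 3 h and 0.51 (SE 0.041, adjusted p = 4.34e-08) at 6 h. At 24 h it fell by 0.81 on the log2 scale (SE 0.041, adjusted p = 5.13e-10), to 0.57 of the DMSO mean.

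HSP90B1, the HSP90 of the ER (GRP94), had 767, 706 and 755 TPM in DMSO, 792, 795 and 815 TPM at 6 h and 440.4, 443 and 418 TPM at 24 h. Its libraries at 6 h lay just above the DMSO range, and those at 24 h far below it. At 24 h its log2 fold change was -0.77 (SE 0.037, adjusted p = 3.15e-10). Small increases were called for HSP90B1 at 3 h (0.099) and 6 h (0.11), but the value was -0.12 at 3 h under spike-in scaling and -0.047 at 6 h under median-ratio scaling. The call at 3 h was lost without KB528 3 h replicate 1 or 2 or DMSO replicate 2 (log2 fold change 0.063 to 0.10), and that at 6 h without KB528 6 h replicate 3 or DMSO replicate 2 (log2 fold change 0.073 to 0.097).

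DNAJB9 (ERdj4), a J-domain cofactor of BiP, showed the largest early increase of the 49 genes. It had 59.6, 62.3 and 59.7 TPM at 1 h, against 30.3, 25.5 and 29.4 TPM in DMSO, a log2 fold change of 1.07 (SE 0.062, adjusted p = 1.02e-08). At 3 h it had 44.3, 50.4 and 45.7 TPM, still above all DMSO libraries (log2 fold change 0.70, SE 0.062, adjusted p = 1.90e-07). At 6 h it had 21.1, 21.4 and 20.9 TPM and at 24 h 18.02, 16.9 and 17.4 TPM, below all DMSO libraries. The log2 fold changes at these times were -0.41 and -0.67 (adjusted p = 3.20e-05 and 2.67e-07). DNAJB9 was the one gene of the 16 called higher at 1 h whose call held with spike-in scaling.

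DNAJC3, another J-domain cofactor, had 18.2, 15.04 and 18.99 TPM in DMSO, 26.3, 26.9 and 28.97 TPM at 6 h and 14.3, 13.6 and 13.95 TPM at 24 h. The 6 h libraries were all above and the 24 h libraries all below DMSO. The log2 fold change of DNAJC3 was 0.63 at 6 h (SE 0.071, adjusted p = 1.61e-06) and -0.30 at 24 h (SE 0.071, adjusted p = 0.00174). DNAJC3-AS1, an antisense row, averaged 1.41 TPM, and the strand setting of the counting was not given in the sources used here. HYOU1, a nucleotide exchange factor of BiP, had 331, 347 and 366 TPM at 6 h and 187, 185 and 178 TPM at 24 h, against 269, 237 and 281 TPM in DMSO. It was called higher at 6 h (log2 fold change 0.41, SE 0.064, adjusted p = 4.32e-05) and lower at 24 h (log2 fold change -0.51, SE 0.064, adjusted p = 5.61e-06). Its call at 1 h (0.24) was lost without KB528 1 h replicate 1 or 2 or DMSO replicate 2 (log2 fold change 0.17 to 0.22).

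DNAJB11 (ERdj3) was called higher at 1, 3 and 6 h, with log2 fold changes of 0.14, 0.25 and 0.40, and lower at 24 h (-0.35). Its call at 1 h was lost without KB528 1 h replicate 1 or 2 or DMSO replicate 2 (log2 fold change 0.12 to 0.14). SDF2L1, a partner of DNAJB11, took another course. It had 125, 128 and 118 TPM in DMSO, 134, 138 and 126 TPM at 3 h, 102, 105 and 111 TPM at 6 h and 70.8, 77.3 and 72.96 TPM at 24 h. Its libraries overlapped those of DMSO at 3 h and lay below them at 6 and 24 h. The log2 fold changes were -0.017 and 0.11 at 1 and 3 h, not called (0.18 and called higher at 3 h after the length correction), then -0.21 (adjusted p = 0.00323) at 6 h and -0.74 (adjusted p = 3.90e-08) at 24 h. The other exchange factor, SIL1, was -0.13 at 6 h and -0.12 at 24 h (log2 fold changes), both called lower, and the 6 h value was 0.057 under spike-in scaling. Its calls were lost without KB528 6 h replicate 1 (log2 fold change -0.087) at 6 h and without KB528 24 h replicate 1 or 3 or DMSO replicate 1 or 3 (log2 fold change -0.11 to -0.12) at 24 h.

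**Figure D3:**
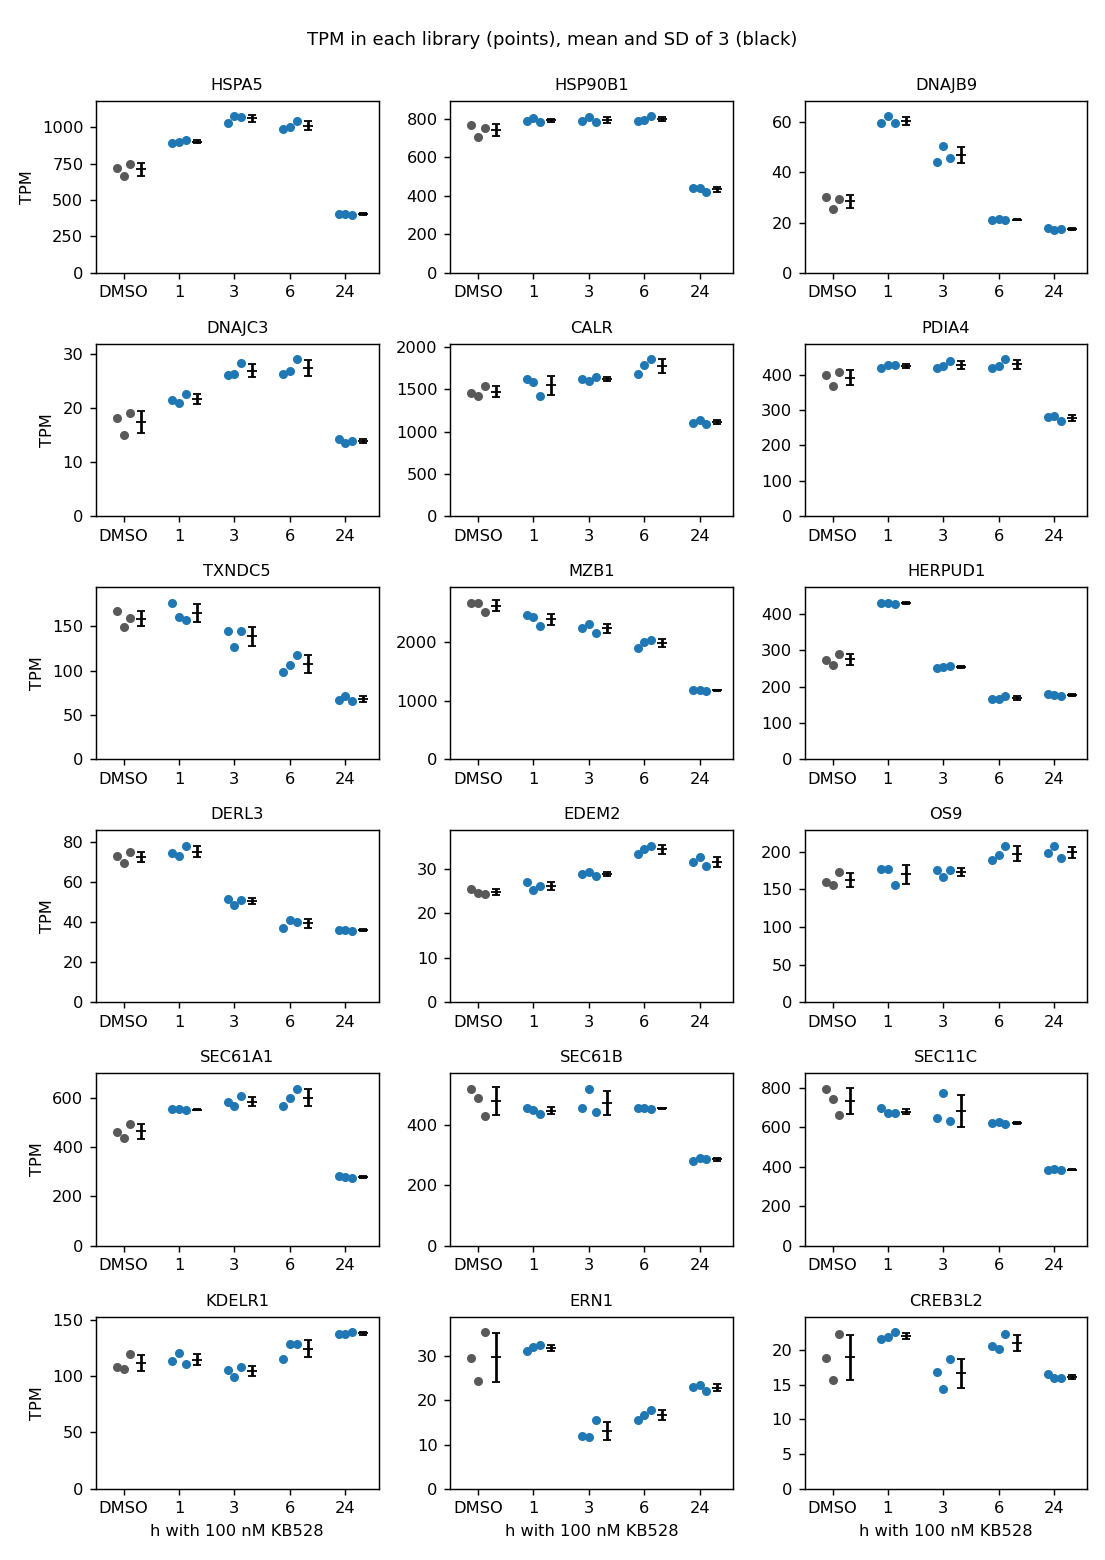
TPM of 18 of the genes in each library (points) and the mean with SD of 3 libraries (black), for DMSO (grey) and 1, 3, 6 and 24 h of 100 nM KB528 (blue); each panel starts at 0. HSPA5 and SEC61A1 are above DMSO at 1, 3 and 6 h and below it at 24 h, DNAJB9 and HERPUD1 peak at 1 h, and MZB1 and TXNDC5 are lowest at 24 h.

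The lectin chaperones calreticulin (CALR) and calnexin (CANX) hold newly glycosylated chains until they fold. CALR had 1454, 1419.7 and 1543 TPM in DMSO, 1687, 1785 and 1857 TPM at 6 h and 1109, 1135 and 1089 TPM at 24 h. All 6 h libraries were above and all 24 h libraries below DMSO. The log2 fold change of CALR was 0.27 at 6 h (SE 0.050, limma's adjusted p = 0.000202) and -0.41 at 24 h (SE 0.050, adjusted p = 4.63e-06). At 1 h the value was 0.071, not called. At 3 h the call (0.15; -0.077 under spike-in scaling) was lost without KB528 3 h replicate 3 or DMSO replicate 1 or 2 (log2 fold change 0.12 to 0.14). CANX had 425, 421 and 437 TPM at 6 h and 288, 284 and 273 TPM at 24 h, against 375, 321 and 365 TPM in DMSO. Its log2 fold changes were 0.28 at 6 h and -0.32 at 24 h (adjusted p = 0.000146 and 3.51e-05). The call of CANX at 1 h (0.16) was lost without KB528 1 h replicate 1, 2 or 3 or DMSO replicate 2 (log2 fold change 0.088 to 0.16).

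The 9 genes for disulfide and proline isomerases and a peroxiredoxin were split until 6 h, with 3 called higher at 1 h, 3 up against 2 down at 3 h, and 3 against 3 at 6 h. At 24 h all 9 were called lower, with a median log2 fold change of -0.42. The shares of all tested genes called higher and lower were 44.4% and 24.5% at 6 h and 56.1% and 15.2% at 24 h. P4HB, the classical protein disulfide isomerase, had 1099, 1147 and 1201 TPM at 6 h and 802, 813 and 809.6 TPM at 24 h, against 902, 850.2 and 956 TPM in DMSO. It was called higher at 6 h (log2 fold change 0.35, SE 0.046, adjusted p = 7.07e-06) and lower at 24 h (log2 fold change -0.16, SE 0.046, adjusted p = 0.00610). Its earlier calls were 0.18 at 1 h, lost without DMSO replicate 2 (log2 fold change 0.13), and 0.20 at 3 h, where spike-in scaling gave -0.028.

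PDIA4 (ERp72) had 400.5, 367 and 409 TPM in DMSO, 419, 424 and 443 TPM at 6 h and 282, 283 and 269 TPM at 24 h. The 24 h libraries lay below all others, with a log2 fold change of -0.49 (SE 0.043, adjusted p = 1.35e-07). Its increases of 0.13 at 3 h and 0.13 at 6 h were called, but they were -0.097 under spike-in scaling at 3 h and -0.026 under median-ratio scaling at 6 h. These calls were lost without KB528 3 h replicate 3 or DMSO replicate 2 (log2 fold change 0.079 to 0.11) at 3 h and without KB528 6 h replicate 3 or DMSO replicate 2 (log2 fold change 0.083 to 0.11) at 6 h. At 1 h the change of 0.12 passed the threshold without DMSO replicate 3 (log2 fold change 0.15), with spike-ins out of the total (0.13) and after the length correction (0.083). PDIA3 (ERp57), the oxidoreductase that works with the lectin chaperones, was called higher at 1, 3 and 6 h (0.19, 0.20 and 0.27; -0.024 at 3 h under spike-in scaling) and lower at 24 h (-0.30). The row of its pseudogene PDIA3P1, which may share reads, averaged 1.03 TPM.

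TXNDC5 (ERp46), a thioredoxin-domain oxidoreductase, had the largest decrease of the 49 genes at 24 h. It had 167, 149.6 and 159.7 TPM in DMSO, 177, 161 and 158 TPM at 1 h and 145, 127 and 145 TPM at 3 h. TXNDC5 libraries at 6 h had 98.4, 106 and 118 TPM and those at 24 h 66.9, 71.9 and 66.2 TPM. The libraries at 1 h overlapped DMSO, and those at 3, 6 and 24 h lay below it. Its log2 fold change was 0.056 at 1 h, -0.19 at 3 h, -0.56 at 6 h (SE 0.071, adjusted p = 5.30e-06) and -1.20 at 24 h (SE 0.071, adjusted p = 2.77e-09). The 3 h call was lost without KB528 3 h replicate 2 or DMSO replicate 1 or 3 (log2 fold change -0.13 to -0.19). TXNDC11, also a thioredoxin-domain protein, had 172, 176 and 172 TPM at 1 h, above the 148, 141 and 157 TPM of DMSO (log2 fold change 0.22, SE 0.043, adjusted p = 0.00173). It was called lower at 6 h (-0.38) and 24 h (-0.47), with 106, 108 and 106 TPM at 24 h. FKBP11, a prolyl isomerase prominent in secretory cells, had 94.3, 93.5 and 91.8 TPM at 24 h, against 154, 159 and 166 TPM in DMSO (log2 fold change -0.77, SE 0.037, adjusted p = 2.99e-10). It was also called lower at 6 h (-0.18), a value that was 0.0085 under spike-in scaling, and at 3 h (-0.091), a call lost without KB528 3 h replicate 1, 2 or 3 or DMSO replicate 2 or 3 (log2 fold change -0.063 to -0.097). PDIA6, FKBP2 and PRDX4 were called at 24 h only, at -0.42, -0.37 and -0.13. Under median-ratio scaling they were also called lower at 6 h, at -0.14, -0.29 and -0.22. The PRDX4 call was lost without DMSO replicate 1 or 2 (log2 fold change -0.11).

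MANF and CRELD2 encode small secreted ER proteins that are induced by ER stress, and both were called higher at 3 and 6 h and lower at 24 h. MANF had 272, 277 and 270.2 TPM in DMSO, 317, 333 and 321 TPM at 3 h, 309, 329 and 315 TPM at 6 h and 168, 176 and 162 TPM at 24 h. The groups at 3 and 6 h lay above DMSO and that at 24 h below it. Its log2 fold change was 0.25 at 3 h (SE 0.040, limma's adjusted p = 8.69e-05), 0.22 at 6 h and -0.69 at 24 h (SE 0.040, adjusted p = 2.19e-09). CRELD2 had 61.9, 66.2 and 66.9 TPM at 24 h, against 96.1, 95.3 and 97.9 TPM in DMSO, and its log2 fold changes were 0.17 at 3 h (-0.048 under spike-in scaling), 0.20 at 6 h and -0.56 at 24 h. The 6 h calls of MANF and CRELD2 were lost under median-ratio scaling (0.063 and 0.048).

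MZB1, a co-chaperone of the ER in B and plasma cells that takes part in immunoglobulin assembly, was called lower at every time. It had 2669.8, 2667 and 2517 TPM in DMSO, 2452, 2418 and 2276 TPM at 1 h and 2233, 2307 and 2153 TPM at 3 h. MZB1 libraries at 6 h had 1899.7, 1992 and 2036 TPM and those at 24 h 1171, 1183 and 1163 TPM. All treated libraries lay below all DMSO libraries, and the 24 h libraries lay below all others. The log2 fold change was -0.23 at 3 h (adjusted p = 0.000199), -0.41 at 6 h (adjusted p = 4.69e-07) and -1.16 at 24 h (SE 0.041, adjusted p = 1.29e-11). At 1 h MZB1 was the one gene of the 49 called lower (log2 fold change -0.14, SE 0.041, adjusted p = 0.0263), and that call was lost without KB528 1 h replicate 2 or 3 or DMSO replicate 1 or 2 (log2 fold change -0.10 to -0.15), whereas 3 genes were called lower at 1 h without DMSO replicate 3.

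The 9 genes of ER-associated degradation did not move together: 3 were called higher at 1 h, and higher against lower calls numbered 2 to 3 at 3 h, 5 to 3 at 6 h and 2 to 3 at 24 h. HERPUD1, a membrane protein that works with the HRD1 ubiquitin ligase, peaked early. It had 273, 261 and 291 TPM in DMSO, 432, 431 and 427 TPM at 1 h and 252, 255 and 256 TPM at 3 h. HERPUD1 libraries at 6 h had 166, 166 and 176 TPM and those at 24 h 180.2, 178 and 175 TPM. The libraries at 1 h were all above and those at 3, 6 and 24 h all below the DMSO range. Its log2 fold change was 0.64 at 1 h (SE 0.040, limma's adjusted p = 1.83e-08), -0.70 at 6 h (SE 0.040, adjusted p = 1.17e-09) and -0.63 at 24 h (SE 0.040, adjusted p = 5.97e-09). The 3 h value of -0.11 was called, and the call was lost without KB528 3 h replicate 1 or DMSO replicate 3 (log2 fold change -0.070 to -0.11).

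DERL3, a derlin that is high in secretory cells, had 72.8, 69.6 and 74.9 TPM in DMSO, 74.3, 72.8 and 77.97 TPM at 1 h and 51.5, 48.7 and 50.8 TPM at 3 h. DERL3 libraries at 6 h had 36.9, 40.9 and 40.3 TPM and those at 24 h 36.3, 36.03 and 35.7 TPM. Its groups overlapped at 1 h and were apart from DMSO at the later times. Its values, as log2 fold changes, were -0.52 at 3 h (SE 0.047, adjusted p = 2.66e-07), -0.86 at 6 h (adjusted p = 6.99e-10) and -0.99 at 24 h (adjusted p = 2.90e-10). The other derlins differed in course. DERL2 had 12.9, 15.3 and 13.1 TPM at 3 h and 10.7, 11.1 and 10.9 TPM at 24 h, against 10.8, 9.57 and 10.2 TPM in DMSO, and was called higher at 1, 3 and 6 h (0.27, 0.39 and 0.26). Its 6 h call was lost under median-ratio scaling (0.12) and after the length correction (0.071), which also ended the 1 h call (0.19). At 24 h its log2 fold change was 0.085, not called, and -0.18 and called lower after the length correction. DERL1 was called at 24 h only, at -0.20, but it was also called lower at 6 h under median-ratio scaling (-0.23), after the length correction (-0.24) and with spike-ins out of the total (-0.10).

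EDEM2, which trims mannose from misfolded glycoproteins, was called higher at 3, 6 and 24 h. It had 33.3, 34.6 and 35.2 TPM at 6 h and 31.5, 32.8 and 30.6 TPM at 24 h, against 25.4, 24.6 and 24.3 TPM in DMSO. The log2 fold changes were 0.21 at 3 h (-0.0060 under spike-in scaling), 0.45 at 6 h (adjusted p = 3.15e-07) and 0.34 at 24 h (adjusted p = 7.59e-06). OS9, a lectin that delivers such chains to the ligase complex, had 198, 207 and 192 TPM at 24 h and 159.5, 156 and 173 TPM in DMSO (log2 fold change 0.29, SE 0.057, adjusted p = 0.000331). At 6 h its log2 fold change was 0.28, also called higher. The 24 h call of OS9 was lost under median-ratio scaling (0.091) and after the length correction (0.078). EDEM1, of the same family as EDEM2, had 32.9, 33.9 and 34.8 TPM at 6 h, against 43.9, 36.9 and 48.8 TPM in DMSO (log2 fold change -0.33, SE 0.078, adjusted p = 0.00138). At 24 h it was -0.12, not called, and it passed the threshold without DMSO replicate 2 (log2 fold change -0.23), under median-ratio scaling (-0.32) and after the length correction (-0.41). Its 3 h call (-0.22) was lost without KB528 3 h replicate 1 or 2 or DMSO replicate 1 or 3 (log2 fold change -0.13 to -0.21).

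The ubiquitin ligase HRD1 (gene SYVN1) and its adaptor SEL1L had few calls. SEL1L had 17.5, 14.5 and 17.4 TPM in DMSO, 19.4, 18.5 and 19.2 TPM at 6 h and 19.3, 17.9 and 16.8 TPM at 24 h. Its 6 h libraries were above and its 24 h libraries overlapped the DMSO range. The log2 fold changes were 0.17, 0.041, 0.20 and 0.13 at 1, 3, 6 and 24 h, with a call at 6 h only, lost without DMSO replicate 2 (log2 fold change 0.12), and one at 1 h without DMSO replicate 3 (log2 fold change 0.21). The 6 h call of SEL1L was also lost under median-ratio scaling (0.057) and after the length correction (0.027). The length correction gave -0.16 at 24 h, called lower. SYVN1 had log2 fold changes of 0.29, 0.17, 0.29 and -0.16, called higher at 1 and 6 h. These calls were lost without KB528 1 h replicate 1, 2 or 3 or DMSO replicate 1 or 2 (log2 fold change 0.19 to 0.30) at 1 h and without DMSO replicate 2 (log2 fold change 0.19) at 6 h, and the 6 h call also under median-ratio scaling (0.13) and after the length correction (0.14). SYVN1 passed the threshold at 3 h without KB528 3 h replicate 2 or DMSO replicate 3 (log2 fold change 0.24 to 0.29) and at 24 h without DMSO replicate 2 (log2 fold change -0.26), and under both of these corrections at 3 h (0.17 and 0.17) and 24 h (-0.36 and -0.39).

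At 24 h 7 of the 8 genes of the translocon and its associated proteins were called lower, with a median log2 fold change of -0.68. At 1, 3 and 6 h 2, 3 and 4 were called higher and 0, 0 and 1 lower. Of all tested genes 15.2% were called lower at 24 h. The shares called higher at 1, 3 and 6 h were 15%, 24.9% and 44.4%, and those called lower 7.57%, 32% and 24.5%. SEC61A1, the channel-forming subunit of SEC61, had 461, 436 and 496 TPM in DMSO, 555, 554 and 550.1 TPM at 1 h and 582, 568 and 607 TPM at 3 h. At 6 h it had 569, 599.7 and 637 TPM and at 24 h 283, 279 and 273 TPM. Like HSPA5, it lay above DMSO in all libraries at 1, 3 and 6 h and below it in all at 24 h. The log2 fold change was 0.25 at 1 h, 0.34 at 3 h, 0.38 at 6 h (SE 0.048, limma's adjusted p = 5.89e-06) and -0.73 at 24 h (SE 0.048, adjusted p = 9.17e-09).

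The small subunits of the channel were not called higher at 1, 3 or 6 h, except SEC61G at 3 h after the length correction (0.25). SEC61B had 519, 488 and 428 TPM in DMSO, 455, 456 and 454 TPM at 6 h and 282, 291 and 286 TPM at 24 h. Its libraries overlapped DMSO at 6 h and lay below it at 24 h, with log2 fold changes of -0.093, -0.016 and -0.068 at 1, 3 and 6 h and -0.73 at 24 h (SE 0.063, adjusted p = 1.17e-07). It passed the threshold, as lower, without DMSO replicate 3 (log2 fold change -0.17) at 1 h and, at 6 h, without DMSO replicate 3 (log2 fold change -0.15) and under median-ratio scaling (-0.22). SEC61G was called at 24 h only (-0.44). Its 3 h libraries, at 433, 586 and 440.1 TPM, were spread widely, with replicate 2 highest.

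SSR1, SSR2, SSR3 and SSR4 encode the subunits of the translocon-associated protein complex. SSR1 had 117, 127 and 121 TPM at 3 h and 64.7, 62.5 and 63.8 TPM at 24 h, against 108, 96.5 and 103 TPM in DMSO. It was above DMSO in all libraries at 3 h and below in all at 24 h, with log2 fold changes of 0.18, 0.25 and 0.20 at 1, 3 and 6 h, all called, and -0.68 at 24 h (SE 0.046, adjusted p = 1.12e-08). The 6 h call of SSR1 was lost under median-ratio scaling (0.043) and after the length correction (0.017), which also ended its 1 h call (0.055). SSR2 and SSR3 fell by 0.69 and 0.73 at 24 h (log2, adjusted p = 1.38e-09 and 5.97e-09). At 6 h SSR2 was called higher at 0.099 and SSR3 lower at -0.13, but SSR2 was -0.058 under median-ratio scaling and SSR3 0.055 under spike-in scaling. Both calls depended on single libraries: SSR2's was lost without KB528 6 h replicate 2 or 3 or DMSO replicate 1 or 2 (log2 fold change 0.079 to 0.10), and SSR3's without KB528 6 h replicate 2 or DMSO replicate 1 (log2 fold change -0.092 to -0.12). SSR4 had the smallest called change of the complex at 24 h, -0.23, with 529, 534 and 552 TPM against 667, 666 and 571 TPM in DMSO. The row of its pseudogene SSR4P1 averaged 0.991 TPM. TRAM1, a membrane protein beside the channel, was called higher at 3 h (0.17; -0.053 under spike-in scaling) and 6 h (0.38). At 24 h it was -0.098, not called, and it passed the threshold, as lower, without DMSO replicate 2 (log2 fold change -0.15), under median-ratio scaling (-0.30), after the length correction (-0.33) and with spike-ins out of the total (-0.097).

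Signal peptidase cuts the signal peptide from entering chains. The 4 of its genes that are among the 49 were all called lower at 24 h (median log2 fold change -0.41). SEC11C, a catalytic subunit and the sixth most abundant of the 49 genes in DMSO, had 796, 747 and 663 TPM in DMSO, 622, 628 and 619 TPM at 6 h and 383, 389 and 385 TPM at 24 h. Both groups lay below DMSO, with log2 fold changes of -0.23 at 6 h (adjusted p = 0.00712) and -0.92 at 24 h (SE 0.069, adjusted p = 3.37e-08). At 1 and 3 h SEC11C was -0.11 and -0.10, not called; it passed the threshold without DMSO replicate 3 (log2 fold change -0.18) at 1 h and without KB528 3 h replicate 2 or DMSO replicate 3 (log2 fold change -0.18 to -0.20) at 3 h. SPCS1 was called lower at 6 h (-0.26) and 24 h (-0.65). SPCS3 went the other way early, with 61.3, 53.1 and 57.3 TPM in DMSO, 62.5, 63.7 and 68.1 TPM at 1 h, 64.8, 63.01 and 67.4 TPM at 6 h and 51.2, 49.7 and 50.2 TPM at 24 h. Its log2 fold changes were 0.18, 0.15 and 0.18 at 1, 3 and 6 h, called higher, and -0.18 at 24 h, called lower (adjusted p = 0.00780). Spike-in scaling gave -0.065 at 3 h and the length correction -0.0086 at 6 h, where median-ratio scaling also ended the call (0.030). The 1 h call was lost under both corrections (0.092 after that for length). The SPCS3 calls were lost without KB528 1 h replicate 2 or 3 or DMSO replicate 2 (log2 fold change 0.12 to 0.19) at 1 h and without KB528 3 h replicate 2 or 3 or DMSO replicate 2 (log2 fold change 0.10 to 0.15) at 3 h.

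SPCS2 was called higher at 3 h (0.13) and 6 h (0.14) and lower at 24 h (-0.13), and each of these calls depended on single libraries. It was -0.095 at 3 h under spike-in scaling and -0.019 at 6 h under median-ratio scaling. The calls were lost without KB528 3 h replicate 2 or DMSO replicate 2 or 3 (log2 fold change 0.076 to 0.12) at 3 h, without KB528 6 h replicate 1 or DMSO replicate 3 (log2 fold change 0.11 to 0.12) at 6 h and without KB528 24 h replicate 3 or DMSO replicate 1 (log2 fold change -0.098 to -0.12) at 24 h.

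Transport out of the ER and retrieval from the Golgi were represented by 4 genes, of which 3 were called lower and 1 higher at 24 h. SEC24D, a cargo-binding subunit of the COPII coat, had 30.5, 29.2 and 27.9 TPM at 24 h, against 41.9, 37.97 and 49.01 TPM in DMSO (log2 fold change -0.53, SE 0.079, adjusted p = 2.38e-05). SEC23B, its partner in the inner coat, was called lower at 24 h as well (-0.31), and at 6 h under median-ratio scaling (-0.16). The KDEL receptors, which return chaperones such as BiP to the ER, parted. KDELR1 had 108, 106 and 119.9 TPM in DMSO, 115, 128 and 129 TPM at 6 h and 137, 137 and 139 TPM at 24 h. The 24 h libraries were above all DMSO libraries (log2 fold change 0.30, SE 0.055, adjusted p = 0.000163). KDELR2 had 147, 151 and 152 TPM at 3 h and 111, 113 and 109.6 TPM at 24 h, against 126, 122 and 139 TPM in DMSO. It was called higher at 1, 3 and 6 h (0.14, 0.22 and 0.21; -0.0066 at 3 h under spike-in scaling) and lower at 24 h (-0.21, adjusted p = 0.000930). The 1 h call of KDELR2 was lost without KB528 1 h replicate 1, 2 or 3 or DMSO replicate 1 or 2 (log2 fold change 0.099 to 0.16) and under median-ratio scaling (0.084), and the 6 h call under median-ratio scaling (0.054) and after the length correction (0.077). KDELR1 was called higher at 6 h (0.15; -0.0019 under median-ratio scaling), and that call was lost without KB528 6 h replicate 2 or 3 or DMSO replicate 1 or 2 (log2 fold change 0.12 to 0.13).

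ERN1 encodes IRE1, the sensor that splices XBP1 mRNA, and its course differed from those of the chaperones. It had 29.6, 24.3 and 35.4 TPM in DMSO, 31.01, 31.9 and 32.4 TPM at 1 h and 11.97, 11.7 and 15.4 TPM at 3 h. At 6 h it had 15.6, 16.6 and 17.8 TPM and at 24 h 23.02, 23.5 and 21.99 TPM. The DMSO libraries were spread widely, those at 1 h lay within their range, and those at 3, 6 and 24 h lay below it. Against DMSO its log2 fold change was -1.12 at 3 h (SE 0.11, limma's adjusted p = 5.82e-07), -0.79 at 6 h (SE 0.11, adjusted p = 1.41e-05) and -0.35 at 24 h (SE 0.11, adjusted p = 0.0101). ERN1 was higher at 24 h than at 6 h (log2 fold change 0.43, SE 0.11, adjusted p = 0.00270). Its 24 h call against DMSO was lost without DMSO replicate 3 (log2 fold change -0.22). CREB3L2, a transcription factor held in the ER membrane until it is cut, had 18.9, 15.8 and 22.3 TPM in DMSO and 21.6, 21.9 and 22.6 TPM at 1 h. Later it had 16.8, 14.4 and 18.7 TPM at 3 h, 20.6, 20.2 and 22.3 TPM at 6 h and 16.5, 16.02 and 15.9 TPM at 24 h. Its log2 fold changes against DMSO were 0.22, -0.17, 0.15 and -0.21 at 1, 3, 6 and 24 h, none called. Between consecutive times it was called lower at 3 h against 1 h (-0.39) and higher at 6 h against 3 h (0.33). It was called lower at 24 h against 6 h (-0.36). The 6 h against 3 h call was lost without KB528 3 h replicate 2 (log2 fold change 0.23), and median-ratio scaling left 0 higher calls in that comparison. Against DMSO at 24 h CREB3L2 was called lower with the replicate number as a block (-0.21). Median-ratio scaling (-0.40) and the length correction (-0.49) also called it lower there. It passed the threshold without DMSO replicate 3 (log2 fold change 0.33) at 1 h, without KB528 3 h replicate 3 or DMSO replicate 2 (log2 fold change -0.26 to -0.29) at 3 h, without DMSO replicate 3 (log2 fold change 0.27) at 6 h and without DMSO replicate 2 (log2 fold change -0.33) at 24 h.

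XBP1 and ATF6, introduced above as factors of the unfolded protein response, are not among the 49 genes, and their binding was not measured. XBP1 averaged 545 TPM in DMSO and 625, 697, 538 and 399 TPM at 1, 3, 6 and 24 h. It was called higher at 1 h (0.20) and 3 h (0.35), not called at 6 h (-0.019) and called lower at 24 h (-0.45, adjusted p = 8.24e-08). With spike-in scaling the XBP1 calls at 1, 3 and 24 h were lost. Median-ratio scaling and the length correction called XBP1 lower at 6 h. TPM per gene does not tell spliced from unspliced XBP1. ATF6 was called at 6 h only (0.17, higher), with 0.12 at 24 h. The 6 genes with an ERSE match in their window, shown above, had median log2 fold changes of 0.24 at 6 h, with 5 called higher and 0 lower, and -0.49 at 24 h, with all 6 called lower. The 36 genes with a window and no ERSE had medians of 0.049 at 6 h (17 higher, 12 lower) and -0.36 at 24 h (3 higher, 28 lower). Among all tested genes 44.4% were called higher and 24.5% lower at 6 h, and 56.1% and 15.2% at 24 h. Median-ratio scaling ended the 6 h calls of HSP90B1 and CRELD2 and called PDIA6 lower. When split by a match to any of the searched elements, the order of the 6 h medians was reversed. The 13 genes with a match had medians of 0.019 at 6 h (6 higher, 5 lower) and -0.56 at 24 h (0 higher, 13 lower). The 29 without had 0.14 (16 higher, 7 lower) and -0.31 (3 higher, 21 lower). No difference between these sets was tested, and the shares of all tested genes stand beside the counts of each set.

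With the main scaling, lower calls between consecutive times were concentrated in the last interval, from 6 to 24 h, which is also the longest. At 3 h against 1 h, 6 genes were called higher and 10 lower (15.2% and 31.8% of all tested genes), and at 6 h against 3 h 10 were called higher and 9 lower (42.3% and 13.7%). At 24 h against 6 h 3 were called higher and 40 lower, with 41% and 26% of all tested genes. The median log2 fold change at 24 h against 6 h was -0.45 for the 49 genes and 0.078 for all tested genes. Under median-ratio scaling 33 genes were called lower at 6 h against 3 h and 41 at 24 h against 6 h. These counts were 26 and 44 after the length correction and 1 and 32 with spike-in scaling. Lower calls among all tested genes numbered 3600 and 3814 in these intervals with median-ratio scaling. They numbered 3373 and 4403 (of 11319) after the length correction and 232 and 2037 with spike-in scaling. HSPA5 had 407, 405 and 397 TPM at 24 h, against 987, 1006 and 1045 TPM at 6 h, the largest of these decreases (log2 fold change -1.33, SE 0.041, adjusted p = 6.33e-12). SEC61A1 (-1.11), DNAJC3 (-0.93), HYOU1 (-0.92) and MANF (-0.91) came next. In contrast HERPUD1 had a small difference between these times (0.070, not called). ERN1, EDEM1 (0.21) and KDELR1 (0.15) were the genes called higher at 24 h against 6 h. That count fell to 1 without KB528 24 h replicate 1 or KB528 6 h replicate 1, since the EDEM1 call was lost without KB528 24 h replicate 1 or KB528 6 h replicate 1 or 2 (log2 fold change 0.17 to 0.21) and that of KDELR1 without KB528 24 h replicate 1, 2 or 3 or KB528 6 h replicate 1 (log2 fold change 0.099 to 0.15).

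The earlier intervals held a few large changes. At 3 h against 1 h ERN1 had the largest decrease (log2 fold change -1.23, SE 0.11, adjusted p = 3.60e-07), followed by HERPUD1 (-0.76) and DERL3 (-0.57), while DNAJC3 was called higher (0.30). At 6 h against 3 h DNAJB9 had the largest decrease (log2 fold change -1.11, SE 0.062, adjusted p = 2.07e-09), followed by HERPUD1 (-0.59) and TXNDC5 (-0.37). ERN1 was called higher at 6 h than at 3 h (0.34), a call lost without KB528 6 h replicate 3 or KB528 3 h replicate 1 or 2 (log2 fold change 0.27 to 0.29). The 6 h against 3 h counts turned with the scaling: median-ratio scaling called 0 higher and 33 lower, the length correction 2 and 26, and spike-in scaling 20 and 1. Without KB528 6 h replicate 3 the higher count was 6. At 3 h against 1 h the counts were 13 higher and 9 lower with median-ratio scaling, 15 and 11 after the length correction, and 0 and 6 with spike-in scaling.

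**Figure D4:**
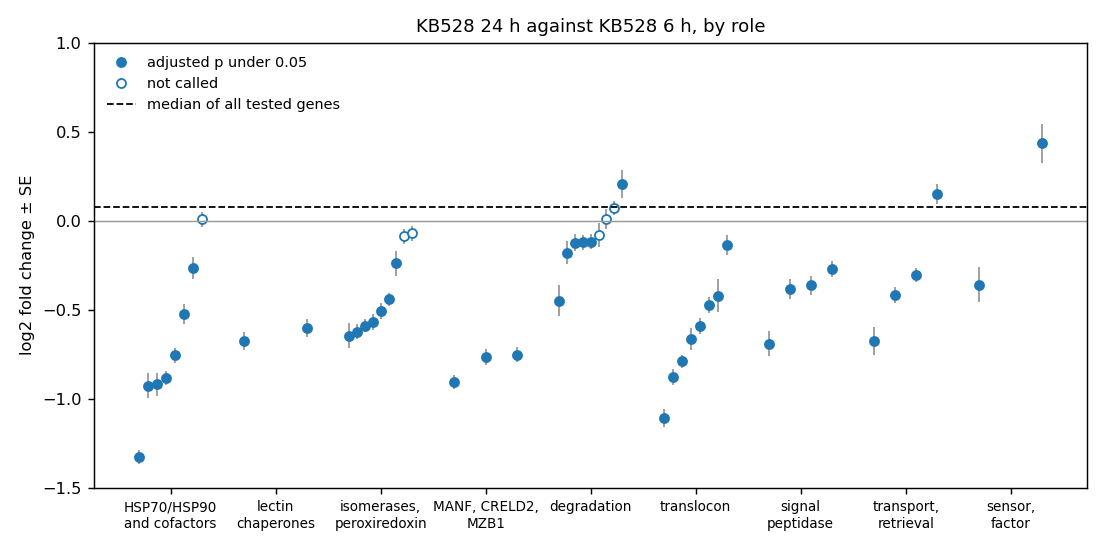
Log2 fold change at 24 h against 6 h of KB528 for each of the 49 genes, grouped by role and ordered by value within a role, with SE bars; filled points have an adjusted p under 0.05 and the dashed line is the median of all tested genes (0.078). The points of 46 genes lie below that line, with HSPA5 lowest at -1.33 and ERN1 highest at 0.43.

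Replicates were apart for many of these genes. All 3 libraries at 24 h lay below all 3 DMSO libraries for 40 of the 49 genes and above them for 3, where 15.4% and 56.7% of all tested genes did so. At 6 h 23 genes lay above and 15 below (44.3% and 24.1% of all tested genes). The 3 h numbers were 19 and 7 (24.3% and 30.5%), and those of 1 h 20 and 1 (23.1% and 13.5%). The lowest group mean was at 24 h for 40 genes, at DMSO for 4, at 6 h for 3 and at 3 h for 2. The highest was at 6 h for 17, at 1 h for 15, at DMSO for 8, at 3 h for 7 and at 24 h for 2. In limma's moderated F test over the 5 groups 48 of 49 genes were called, where 93.6% of all tested genes were, and the exception was PRDX4. Leaving out each library in turn, 36 of the 40 lower and 3 of the 3 higher calls at 24 h held, and so did 12 of 14 lower and 18 of 25 higher calls at 6 h, 15 of 20 higher and 3 of 7 lower at 3 h, and 9 of 16 higher and 0 of 1 lower at 1 h. The count of higher calls at 1 h was 10 without KB528 1 h replicate 2 and 9 without DMSO replicate 2. The count of lower calls at 3 h was 4 without KB528 3 h replicate 1.

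**Figure D5:**
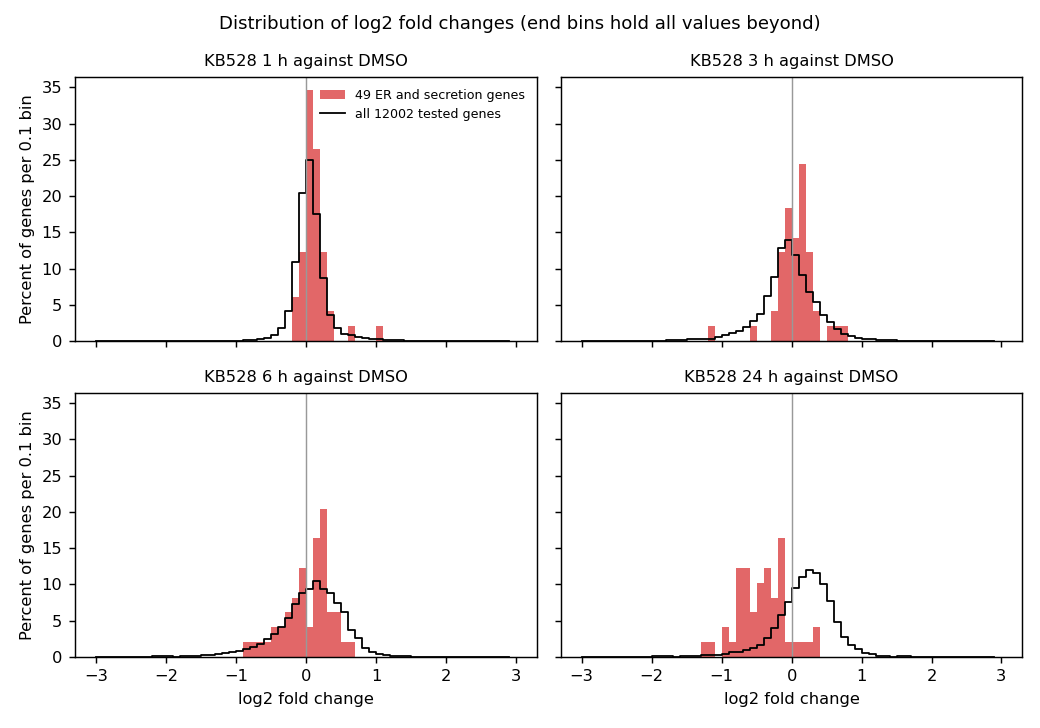
Distribution of log2 fold changes against DMSO at 1, 3, 6 and 24 h, in bins of 0.1, for the 49 genes (bars) and all 12002 tested genes (line), each as a percent of its set. At 24 h most bars lie below 0, with a median of -0.41, while the line has a median of 0.23; at 1, 3 and 6 h the medians of both sets lie between -0.042 and 0.13.

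Other genes of the pathway were counted from fixed lists, and no difference between these lists and the 49 genes was tested. Of all tested genes 15% were called higher and 7.57% lower at 1 h, and 24.9% and 32% at 3 h. The shares were 44.4% and 24.5% at 6 h and 56.1% and 15.2% at 24 h. The lists were counted with the main scaling only. Of 14 tested regulators of the unfolded protein response, the higher against lower calls numbered 8 to 2 at 1 h, 4 to 3 at 3 h, 4 to 5 at 6 h and 5 to 5 at 24 h. The largest early increases were DDIT3, a stress-induced transcription factor (0.91 at 1 h), and PPP1R15A, which reverses the phosphorylation of eIF2 (0.88 at 1 h). EIF2AK3, the sensor PERK, was called higher at 1, 3 and 6 h (0.38, 0.40 and 0.32), with -0.071 at 24 h, not called. BHLHA15 (MIST1), a transcription factor of secretory cells that XBP1 activates, averaged 58.8 TPM at 6 h and 40.5 TPM at 24 h, against 160.4 TPM in DMSO. Its log2 fold change was -1.43 at 6 h and -1.96 at 24 h (adjusted p = 1.81e-09 and 1.06e-10), larger than that of any of the 49 genes at these times.

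The oligosaccharyltransferase, which attaches glycans to chains as they enter the ER, had 0 of 11 tested genes called higher and 7 lower at 24 h; the 1 h counts were 0 and 3. Its catalytic subunit STT3A averaged 93.6 TPM at 24 h, against 142 TPM in DMSO (log2 fold change -0.60, SE 0.041, adjusted p = 1.25e-08). The signal recognition particle and its receptor had 4 of 8 genes called higher at 6 h, and 2 higher against 4 lower at 24 h. Beside these lists, 44.4% of all tested genes were called higher and 24.5% lower at 6 h, and 56.1% and 15.2% at 24 h. SRPRB, a receptor subunit, averaged 266 TPM at 6 h and 124 TPM at 24 h, against 189 TPM in DMSO. Its log2 fold changes were 0.49 and -0.61 (adjusted p = 3.07e-08 and 4.52e-09). Of 21 other degradation factors 16 were called higher and 3 lower at 6 h, and 9 and 6 at 24 h. UBE2J1, a ubiquitin-conjugating enzyme of the ER membrane, fell by 1.14 at 6 h. Of 23 other folding factors 13 were called higher and 3 lower at 6 h, and 11 and 7 at 24 h. Of 11 other translocation factors 8 were called higher and 2 lower at 6 h, and 5 and 3 at 24 h. The medians of these lists at 24 h were -0.22 for the oligosaccharyltransferase, -0.17 for the signal recognition particle, 0.025 for degradation, 0.079 for folding and 0.12 for translocation, beside 0.23 for all tested genes.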

How the data were processed

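The authors deposited 1 table of TPM (transcript abundance scaled for length and library size) for 15 libraries, 3 for each of DMSO and 1, 3, 6 and 24 h of KB528. Per the submitters' processing notes, STAR, featureCounts, FastQC and MultiQC were used on build hg19; versions and settings are not given in the sources used here. Per the labels' protocols the libraries were strand-specific and made from mRNA. The table names the DMSO columns as untreated at 0 h, and they were matched to the DMSO titles by time and replicate number; 0 columns were left unused. Its 92 spike-in rows, 9.35% to 16.6% of the TPM of a library, stayed out of the tests. Absolute depth is unknown. Steps in the low values put relative depth at 0.759 to 1.12 of DMSO replicate 1, and 11616 to 12356 genes reached 1 TPM in a library, and the precision from counting could not be computed. Replicates correlated across genes with r of 0.995 to 0.998, and 0 pairs were identical.

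From these values log2(TPM + 1) was tested with limma 3.58.1 in R 4.3.3 (lmFit and eBayes with a variance trend), on genes averaging 1 TPM or more over the libraries, with all 5 groups in 1 fit. Each time was compared with DMSO and with the time before it, and a moderated F test covered the course. Benjamini-Hochberg adjustment ran over all 12002 tested genes in each comparison, at a threshold of 0.05. Changes of low genes are understated by the added 1 TPM. The script was tested on simulated data. The genes and lists were chosen with earlier results of these data known.

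All 49 genes were counted. Genes named with values were the up to 5 largest called changes in each direction and comparison, 15 fixed genes at all times, up to 3 genes of each role, the most abundant genes, genes called in opposite directions at 2 times, XBP1 and ATF6, and up to 2 genes of each other list at a time; the remaining genes of the 49, and ATF4, ARCN1 and EIF2AK3, were added after their values were seen. One gene that this rule names is not reported here. Promoter windows came from RefSeq (GRCh38.p14), with matches for 42 genes, and transcript lengths, for all 49 genes and 94.3% of tested genes, from GENCODE. Alternatives tried were median-ratio scaling, scaling to the spike-ins, spike-ins taken out of the total, a length correction, another pseudocount (0.1), a filter at 5 TPM or no filter, a fit of the compared groups alone, a block for replicate number, a fit with no variance trend, and leaving out each library. Python 3.11.15, pandas 2.3.3, scipy 1.17.1 and matplotlib 3.10.9 were used for tables and figures.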

Additional observations from a re-analysis of the deposited data

Results flagged for a closer look

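Genes were picked out where the calls against DMSO had opposite directions at consecutive times. The direct comparison of these times also had to pass limma's adjusted p threshold of 0.05. Opposite calls against the same DMSO libraries largely imply such a difference, so that the direct comparison is no independent result. HERPUD1 was called higher at 1 h and lower at 3 h, and its log2 fold change at 3 h against 1 h was -0.76. DNAJB9 was called higher at 3 h and lower at 6 h, with -1.11 at 6 h against 3 h.

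The other 18 genes were called higher at 6 h and lower at 24 h. Among the HSP70 and HSP90 chaperones and their cofactors, the log2 fold change at 24 h against 6 h was -1.33 for HSPA5, -0.88 for HSP90B1, -0.92 for HYOU1, -0.76 for DNAJB11 and -0.93 for DNAJC3. It was -0.68 for CALR and -0.60 for CANX, the lectin chaperones. The disulfide isomerases PDIA3, PDIA4 and P4HB had -0.57, -0.62 and -0.51. The stress-induced secreted proteins MANF and CRELD2 had -0.91 and -0.77. Of the translocon and its associated proteins, SEC61A1 had -1.11, SSR1 -0.88 and SSR2 -0.79. The signal peptidase subunits SPCS2 and SPCS3 had -0.27 and -0.36, and the KDEL receptor KDELR2 had -0.42. Under median-ratio scaling the 6 h call was lost for HSP90B1, PDIA4, SSR2 and SPCS2, with values below 0, and for MANF, CRELD2, SSR1, SPCS3 and KDELR2, at 0.030 to 0.063. In each of these comparisons all 3 libraries at the later time lay below all 3 at the earlier one.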

How the results depend on the processing

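All counts are of the 49 genes. Most of those under median-ratio scaling, spike-in scaling and the length correction are given in the Results beside counts of all tested genes. With 3 libraries a group of unknown absolute depth, differences near 0.1 on the log2 scale lie close to what 1 library decides. Spike-in scaling adds its own spread, since the spike-in factor varied within groups with SDs of 0.12 to 0.32 (log2). Whether the spike-ins were added per cell or per amount of RNA was not given in the sources used here. The causes of the shifts below were not tested.

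Higher and lower calls moved by over 1.5 times as follows. At 1 h the 16 higher became 1 with spike-in scaling and 10 with only the compared groups, and the 1 lower became 0 with no filter, with spike-in scaling, with no variance trend and with only the compared groups, and 2 with median-ratio scaling and the length correction. At 3 h the 20 higher became 0 with spike-in scaling, and the 7 lower became 2 with spike-in scaling and 4 with spike-ins out of the total and with only the compared groups. At 6 h the 25 higher became 12 with median-ratio scaling, 11 with spike-in scaling and 16 with the length correction, and the 14 lower became 3 with spike-in scaling. At 24 h the 3 higher became 0 and the 40 lower 21 with spike-in scaling. At 3 h against 1 h the 6 higher became 13 with median-ratio scaling, 0 with spike-in scaling and 15 with the length correction, and the 10 lower became 6 with spike-in scaling. At 6 h against 3 h the 10 higher became 0, 20 and 2 with median-ratio scaling, spike-in scaling and the length correction, and the 9 lower became 33, 1 and 26, and 17 with spike-ins out of the total. At 24 h against 6 h the 3 higher became 0 with spike-in scaling. The pseudocount of 0.1 and the filter of 5 TPM moved no count beyond 1.5 times.

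Leaving out 1 library in turn, the counts higher and lower ranged over 9 to 21 and 0 to 3 at 1 h, 15 to 21 and 4 to 9 at 3 h, 19 to 26 and 13 to 17 at 6 h, and 3 to 3 and 37 to 43 at 24 h. They ranged over 4 to 6 and 8 to 12 at 3 h against 1 h, 6 to 11 and 8 to 11 at 6 h against 3 h, and 1 to 3 and 35 to 39 at 24 h against 6 h, and over 47 to 49 in the F test. No gene changed its direction in these repeats among those called.

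Directions of called genes turned under scaling for the following genes (log2 fold changes). With spike-in scaling at 3 h they were -0.12 for HSP90B1, -0.077 for CALR, -0.024 for PDIA3, -0.097 for PDIA4, -0.028 for P4HB, -0.048 for CRELD2, -0.0060 for EDEM2, -0.053 for TRAM1, -0.095 for SPCS2, -0.065 for SPCS3 and -0.0066 for KDELR2. At 6 h they were 0.057 for SIL1, 0.0085 for FKBP11 and 0.055 for SSR3. At 3 h against 1 h they were -0.016 for CRELD2 and -0.026 for EDEM2, at 6 h against 3 h 0.044 for TXNDC5, 0.056 for DERL3 and 0.089 for SDF2L1, and at 24 h against 6 h -0.054 for KDELR1. With median-ratio scaling at 6 h they were -0.047 for HSP90B1, -0.026 for PDIA4, -0.14 for PDIA6, -0.058 for SSR2, -0.019 for SPCS2 and -0.0019 for KDELR1. With the length correction at 6 h they were -0.022 for HSP90B1, -0.0041 for PDIA4, -0.099 for PDIA6 and -0.0086 for SPCS3, and at 24 h -0.16 for SEL1L and -0.18 for DERL2. PDIA6 at 6 h and SEL1L and DERL2 at 24 h were uncalled in the opposite direction before these corrections and called lower after them.

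With the replicate number as a block 16 genes were called higher and 1 lower at 1 h, 20 and 6 at 3 h, 25 and 14 at 6 h, and 3 and 41 at 24 h; FKBP11 lost its call at 3 h (-0.091) and CREB3L2 gained one at 24 h (-0.21). Of 30 pairs of libraries with the same number in different groups 7 had deviations that correlated above 0.1, with a range of -0.157 to 0.43. At 6 h against DMSO every pair with different numbers was below 0, which largely follows from taking deviations from the mean of each group's 3 libraries. All 3 pairs with the same number correlated above 0.1 there (0.136, 0.152 and 0.148), and the block changed no call. In no other comparison of groups did all 3 pairs do so, and there the libraries share only a number.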

Other observations

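Coats of the vesicles that leave and return to the ER were counted from fixed lists, with the main scaling only. Of all tested genes 15% were called higher and 7.57% lower at 1 h, and 24.9% and 32% at 3 h. The shares were 44.4% and 24.5% at 6 h and 56.1% and 15.2% at 24 h. Of 11 tested COPI genes, whose coat returns proteins from the Golgi, 3 were called higher and 0 lower at 1 h, 2 and 0 at 3 h, 6 and 0 at 6 h, and 2 and 4 at 24 h (limma, adjusted p threshold 0.05). ARCN1, the delta subunit, averaged 154 TPM at 6 h and 116 TPM at 24 h, against 106 TPM in DMSO, with log2 fold changes of 0.54 and 0.13, the first of which was called. COPZ2, a zeta subunit, averaged 17.3 TPM at 24 h, against 7.05 TPM in DMSO (log2 fold change 1.19, SE 0.075, adjusted p = 5.89e-09), and 6.73 TPM at 6 h, where its log2 fold change of -0.062 was not called.

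Of 22 other COPII and retrieval genes 13 were called higher and 4 lower at 6 h, and 8 and 9 at 24 h. LMAN1, a lectin receptor that carries glycoproteins out of the ER, averaged 116 TPM at 24 h, against 195 TPM in DMSO (log2 fold change -0.74, SE 0.058, adjusted p = 5.56e-08). KDELR3, the third KDEL receptor, averaged 4.19 TPM at 6 h and 4.66 TPM at 24 h, against 7.22 TPM in DMSO, and was called lower at both times (-0.67 and -0.54), while KDELR1 was called higher at both. The median log2 fold change at 24 h was 0.04 for the COPI list and -0.011 for the COPII and retrieval list, beside 0.23 for all tested genes. ATF4, the factor downstream of PERK, was called higher at 1 h (0.37) and lower at 6 and 24 h (-0.50 and -0.38), and CREB3L4, a relative of CREB3L2, was called lower at 6 h (-0.53) and higher at 24 h (0.64).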
